A study of Arabidopsis thaliana with 48 samples.

Results

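The 10 genes described here encode 3-ketoacyl-CoA synthases (KCS) of Arabidopsis thaliana. They were chosen by gene identifier (KCS1, KCS2, KCS3, KCS4, KCS6, KCS8, KCS9, KCS10, KCS11 and KCS20) out of 28496 genes counted in each library, which also hold 11 other KCS genes. The set was chosen after KCS1 had been seen at a higher level on induction in the CNA and PHB lines, with or without SDdelta, and not in CNA-KnC3HDZ. The members' values in those 5 lines are therefore given as a description, with no p-value and with nothing read from a count, and their response to induction was tested in the 3 lines that played no part in the choice, CNA-KnC3HDZ_8m, CNA-SmHOX32 and CNA-PpHOX32. All 10 members passed the filter on low counts, which 18909 genes passed.

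A KCS is the condensing enzyme of the fatty acid elongase of the endoplasmic reticulum, which lengthens acyl chains in cycles of condensation, reduction, dehydration and a further reduction. The KCS isoform sets which chain is lengthened and how far, whereas the other enzymes of the cycle are shared. The very-long-chain products feed cuticular wax on the epidermis of shoots, suberin in roots, sphingolipids and phospholipids. CORONA (CNA) and PHABULOSA (PHB) are class III homeodomain-leucine zipper (HD-ZIPIII) transcription factors, a family known for its roles in the shoot meristem, the upper side of the leaf and the vascular tissue.

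The study induced CNA, PHB or chimeric CNA constructs in transgenic T2 seedlings and measured polyadenylated RNA of whole seedlings by 3' end sequencing. The 8 lines comprise PHB, PHB-SDdelta, CNA and CNA-SDdelta, together with the chimeras CNA-PpHOX32, CNA-SmHOX32, CNA-KnC3HDZ_8m and CNA-KnC3HDZ. The labels do not spell out SDdelta, KnC3HDZ, 8m, SmHOX32 or PpHOX32. In each line, 3 biological replicates aged 9 days received a spray of β-estradiol at 50 µM and 3 received a mock spray, and all were harvested 24 h later at 10 days. Both sprays contained the wetting agent Silwet L-77 at 0.005% and DMSO at 1%, so every group shared these. This makes 16 groups of 3 and 48 libraries. The promoter of the inducible system and the number of independent insertions behind each line are not given in the sources used here. No line without a construct was analysed here, so estradiol and the construct cannot be told apart within a line. Replicates were numbered as biological replicates, and whether they came from separate plates is not stated, so p-values measure the spread between these samples.

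The libraries held between 1808765 and 37222617 counts, with a median of 5944946.5, and the common biological coefficient of variation was 60.9%. The induced gene was checked in each line against the labels. CNA rose in the CNA line and in the 4 chimeric lines, and PHB rose in the PHB and PHB-SDdelta lines. In the CNA-SDdelta line, CNA was at 11.9 ± 4.18 CPM (counts per 1000000 counts) in mock and 23.6 ± 9.85 in induced seedlings (SD, n = 3 each), and the difference did not pass the test (log2 difference 0.99 ± 0.42 SE, edgeR adjusted p = 0.216). The endogenous and the induced transcripts of these genes could share reads, so the values are sums of both where both were counted. The 3 leaf markers (RBCS1A, LHCB1.3 and RCA) were present in every library, and their summed level was lower in every induced library than in every mock library of the same line. In CNA, for example, it was 22803 to 27513 CPM in mock and 7811 to 14229 CPM in induced seedlings. Because whole seedlings were sampled, fewer cells of a type and less RNA per cell cannot be told apart in any value below.

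The members lie on chromosomes 1, 2 and 5. The 300 bases upstream of the annotated start of KCS1 and KCS3 are shown because KCS1 is the gene the set was chosen by and KCS3 has the smallest adjusted p among the tested members. The positions and sequences are from the RefSeq assembly TAIR10.1, read 5′ to 3′ on the strand of the gene.
KCS1 upstream window, chr1:59216-59515, minus strand: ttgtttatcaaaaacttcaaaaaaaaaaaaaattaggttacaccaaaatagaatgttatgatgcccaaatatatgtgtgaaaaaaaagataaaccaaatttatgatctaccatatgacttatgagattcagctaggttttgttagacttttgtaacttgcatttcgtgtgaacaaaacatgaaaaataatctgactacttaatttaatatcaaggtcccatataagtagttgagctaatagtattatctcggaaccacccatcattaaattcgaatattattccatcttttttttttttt
KCS3 upstream window, chr1:2392629-2392928, minus strand: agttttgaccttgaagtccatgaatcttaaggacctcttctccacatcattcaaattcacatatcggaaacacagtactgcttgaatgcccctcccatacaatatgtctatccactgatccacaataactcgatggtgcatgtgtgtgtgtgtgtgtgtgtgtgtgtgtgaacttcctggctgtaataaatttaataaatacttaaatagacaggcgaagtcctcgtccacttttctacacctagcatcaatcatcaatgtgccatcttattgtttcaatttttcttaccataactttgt
Neither window overlaps another annotated gene or holds TAATNATTA, the core of the HD-ZIPIII binding site, on either strand. The full palindrome, which is this core with G before it and C after it, was found upstream of 0 of the 10 members and in 0.0547% of 27443 windows of the same length. The core alone was found in 0 of the 10 and in 4.41% of those windows. A missing match says only that these letters are not in the window.

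The L1 box (TAAATGCA or TAAATGTA, either strand) is known as a binding site of epidermal homeodomain proteins of another class. It was present in 2 of the 10 upstream windows, those of KCS9 and KCS10, and in 5.51% of the 27443 windows. The 60 bases around each match are shown with the L1 box in capitals, which lies 76 to 69 bases before the start of KCS9 and 54 to 47 bases before the start of KCS10.
KCS9 L1 box window, chr2:7050697-7050756, plus strand: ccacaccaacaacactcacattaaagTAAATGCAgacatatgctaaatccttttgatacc
KCS10 L1 box window, chr2:11173299-11173358, minus strand: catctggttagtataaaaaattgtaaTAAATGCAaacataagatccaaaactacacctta
A match is a description of the sequence and not evidence of binding.

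Expression levels are given in CPM after TMM scaling. In 3' end libraries the reads come from the end of each transcript whatever its length, so no length correction was made and levels of different genes are set side by side as CPM. KCS6, also known as CER6 and the main condensing enzyme of cuticular wax, had the highest level in every group, from 364 to 1726 CPM over the 48 libraries with a median of 851. It made up 36.3 to 62.3% of the summed CPM of the 10 members (median 51.4%). KCS10, also known as FIDDLEHEAD, which prevents fusion of shoot organs, followed with a median share of 14.8%. KCS1 had a median share of 12.3%, KCS20 of 7.17% and KCS3 of 5.56%. The other 5 members each had a median share under that of KCS3, from 0.453% for KCS4 to 3.63% for KCS9. KCS2 was at or under 3 counts in 2 libraries, and KCS4 and KCS8 in 1 library each.

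**Figure D1:**
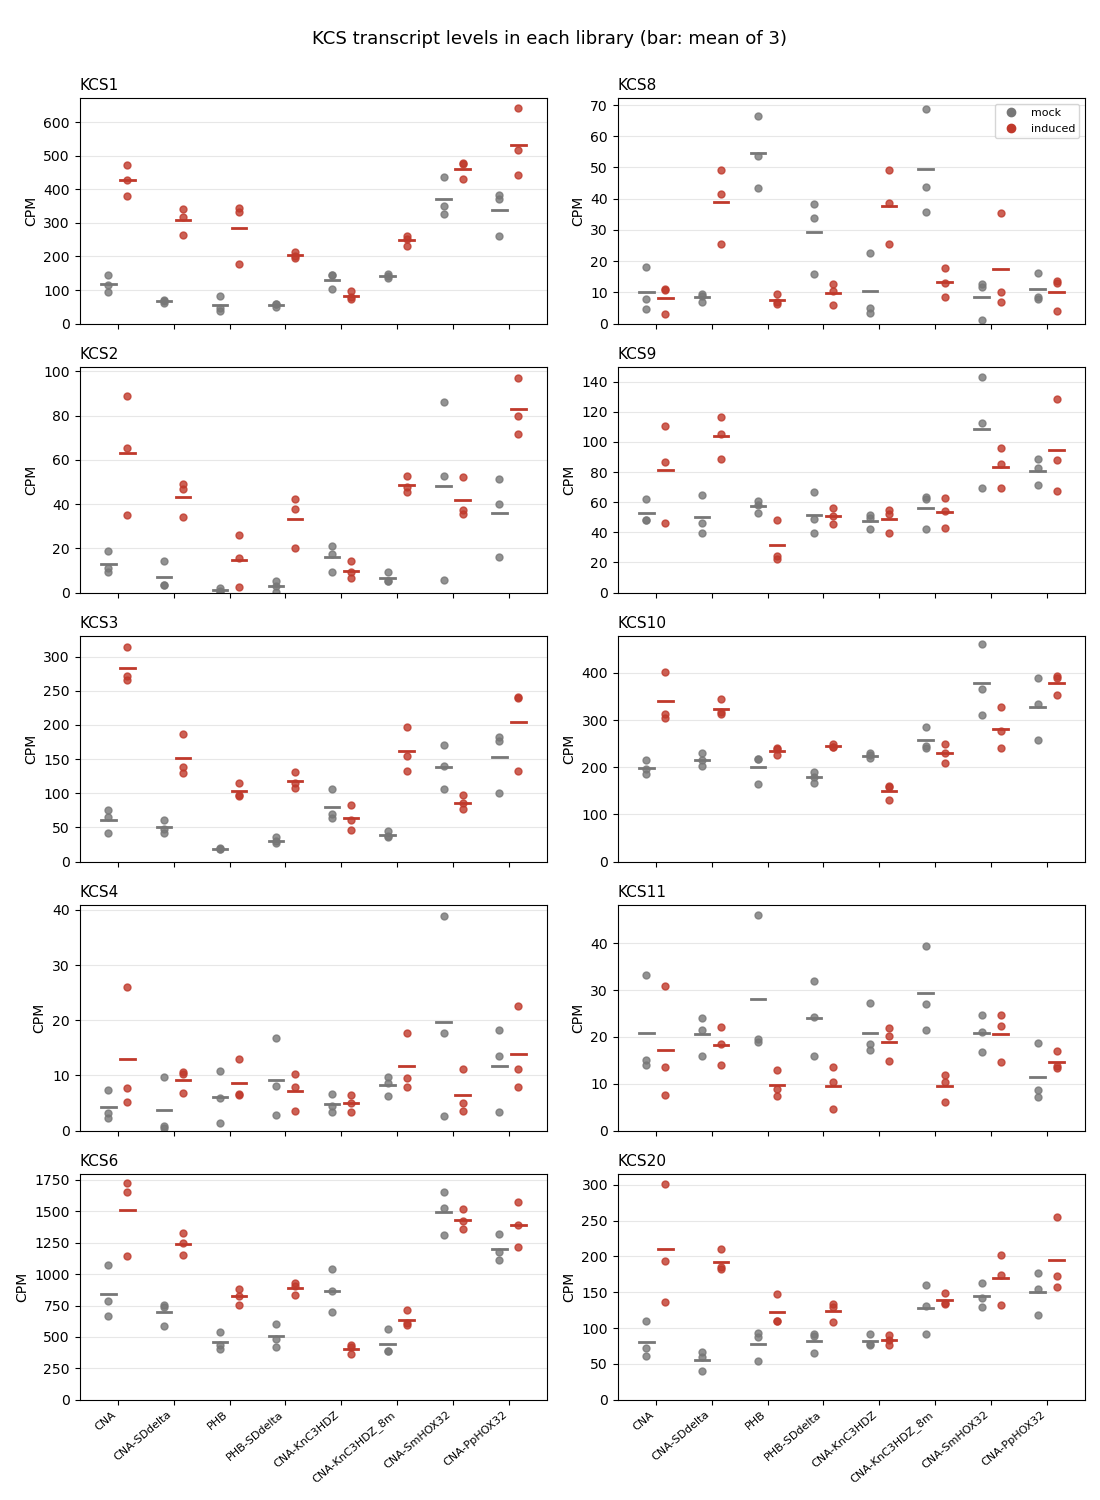
Level of each of the 10 KCS genes in CPM (y axes, linear, each from 0) in the 8 lines (x axes), with 1 point per library and a bar at the mean of 3 replicates for mock and induced seedlings. KCS6 spans 364 to 1726 CPM and KCS1 spans 37.6 to 642 CPM, and for both genes the CNA-SmHOX32 and CNA-PpHOX32 mock libraries lie above the mock libraries of the other 6 lines.

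KCS1 (AT1G01120, chr1:57164-59215, minus strand, 1 exon) encodes a condensing enzyme involved in wax synthesis. In the CNA line its level was 381, 429.6 and 473 CPM in the 3 induced libraries and 94.5, 116 and 144 CPM in the 3 mock libraries. In PHB it was 178, 331 and 345 CPM against 37.6, 45.5 and 82.3 CPM. The SDdelta versions gave 263, 317 and 342 CPM against 62.5, 70.1 and 66.8 CPM for CNA-SDdelta. PHB-SDdelta gave 196, 213 and 201 CPM against 49.4, 59.1 and 57.3 CPM. In these 4 lines every induced library was above every mock library, and the log2 differences were 1.86 ± 0.22 (SE), 2.37 ± 0.23, 2.21 ± 0.23 and 1.88 ± 0.23 for CNA, PHB, CNA-SDdelta and PHB-SDdelta. In CNA-KnC3HDZ the order was the opposite, with 74.6, 96.6 and 78.3 CPM in induced and 102, 144 and 145 CPM in mock seedlings (log2 difference -0.64 ± 0.22). These 5 lines chose the gene, and no p-value is given for it there.

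The 3 remaining lines allow a test of KCS1, fitted with edgeR's quasi-likelihood test and adjusted over all 18909 genes by the Benjamini-Hochberg method (edgeR adjusted p). In CNA-KnC3HDZ_8m KCS1 was at 261, 232 and 253 CPM in induced and 142, 148 and 136 CPM in mock libraries. The groups did not overlap, and KCS1 rose by a log2 difference of 0.81 ± 0.22 (edgeR adjusted p = 0.011, n = 3 each). The call was lost without induced replicate 1 (0.77, edgeR adjusted p = 0.0513) and without mock replicate 3 (0.76, edgeR adjusted p = 0.0618). Unlike the main fit, all fits without 1 library were given a dispersion trend (spread between replicates by level) from all 48 libraries. A call lost in them need not rest on the library left out alone. In CNA-PpHOX32 the induced libraries were at 518, 642 and 442 CPM and the mock libraries at 372, 383 and 262 CPM. They did not overlap, but the log2 difference of 0.65 ± 0.22 missed the threshold of 0.05 (edgeR adjusted p = 0.062) and passed it with DESeq2 (0.69, adjusted p = 0.0275). In CNA-SmHOX32 the induced libraries at 479, 477 and 431 CPM overlapped the mock libraries at 352, 437 and 328 CPM (log2 difference 0.31 ± 0.22, edgeR adjusted p = 0.389).

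Ordered by mean level over the 16 groups, KCS1 was lowest in the mock groups of PHB (55.1 ± 23.9 CPM, SD, n = 3), PHB-SDdelta (55.3 ± 5.18) and CNA-SDdelta (66.5 ± 3.82). The PHB mock libraries, at 37.6 to 82.3 CPM, overlapped those of PHB-SDdelta and CNA-SDdelta, and also induced CNA-KnC3HDZ. The mock libraries of PHB-SDdelta and CNA-SDdelta did not overlap each other. Induced CNA-KnC3HDZ (83.2 ± 11.8), CNA mock (118 ± 24.7), CNA-KnC3HDZ mock (129.97 ± 24.5) and CNA-KnC3HDZ_8m mock (142 ± 6.27) came next, each overlapping its neighbour. Induced PHB-SDdelta (203 ± 8.95) stood clear of both neighbours in the order, but lay within the range of induced PHB (178 to 345 CPM). From induced CNA-KnC3HDZ_8m (249 ± 15.1) upward every group overlapped the next, through induced PHB, induced CNA-SDdelta, the mock groups of CNA-PpHOX32 (339 ± 67.2) and CNA-SmHOX32 (372 ± 57.4) and induced CNA (428 ± 46.2) to induced CNA-PpHOX32 (534 ± 101). The uninduced HOX32 lines thus lay among the induced groups of other lines.

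KCS6 (AT1G68530, chr1:25712414-25715024, minus strand, 2 exons) was higher in induced than in mock libraries without overlap in CNA, CNA-SDdelta, PHB and PHB-SDdelta, with log2 differences of 0.84, 0.84, 0.84 and 0.82 (SE 0.18 each). In CNA, induced libraries were at 1147, 1726 and 1656 CPM and mock libraries at 669, 788 and 1069 CPM. In CNA-KnC3HDZ, induced libraries were at 434, 421 and 364 CPM, all below the mock libraries at 697, 867 and 1042 CPM (log2 difference -1.10 ± 0.18). KCS6 thus lay above mock in the same 4 of these 5 lines as KCS1 and below mock in the same 1. In CNA-KnC3HDZ_8m it was at 608, 596 and 712 CPM against 384, 385 and 563 CPM. The groups did not overlap, but the log2 difference of 0.52 ± 0.18 missed the threshold (edgeR adjusted p = 0.0732), and it passed without mock replicate 3 (0.71, edgeR adjusted p = 0.0197). In CNA-SmHOX32 (-0.06 ± 0.18, edgeR adjusted p = 0.889) and CNA-PpHOX32 (0.21 ± 0.18, edgeR adjusted p = 0.597) the libraries overlapped.

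KCS2 (AT1G04220, chr1:1119699-1122786, minus strand) and KCS20 (AT5G43760, chr5:17585523-17588733, plus strand) encode a closely related pair of enzymes with overlapping roles, known from cuticular wax and root suberin. KCS2 was low in mock seedlings. In PHB it was at 0.76, 0.239 and 2.05 CPM, or 9, 2 and 11 counts, in mock libraries. In induced libraries it was at 25.9, 15.5 and 2.5 CPM, or 206, 80 and 5 counts. The lowest induced library thus lay just above the highest mock library, at few counts. Induced libraries were above mock libraries in CNA, CNA-SDdelta, PHB and PHB-SDdelta, with log2 differences of 2.28 ± 0.60, 2.58 ± 0.61, 4.02 ± 0.72 and 3.43 ± 0.66. In CNA-KnC3HDZ the groups overlapped (-0.70 ± 0.59). In CNA-KnC3HDZ_8m KCS2 was at 47.9, 45.6 and 52.6 CPM in induced and at 5.01, 9.36 and 5.09 CPM in mock libraries. It rose by a log2 difference of 2.92 ± 0.63 (edgeR adjusted p = 0.00078), and the call held without each of the 6 libraries in turn. The mock libraries of CNA-SmHOX32 were spread from 5.78 to 86.4 CPM around induced libraries at 35.7 to 52.3 CPM, and the log2 difference was -0.22 ± 0.57 (edgeR adjusted p = 0.873). In CNA-PpHOX32 the induced libraries at 71.8 to 97 CPM lay above the mock libraries at 16 to 51.5 CPM, and the log2 difference of 1.20 ± 0.57 missed the threshold (edgeR adjusted p = 0.239). KCS2 overlaps 2 genes on the opposite strand, and strand use in counting is not stated, so its counts are uncertain.

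KCS20 had no overlap in the 4 lines in which KCS2 had none among the 5 described lines, with log2 differences of 1.38 ± 0.25 in CNA, 1.80 ± 0.26 in CNA-SDdelta, 0.65 ± 0.25 in PHB and 0.61 ± 0.25 in PHB-SDdelta. In CNA-SDdelta it was at 182, 185 and 209.6 CPM in induced and at 66.7, 59.3 and 39.3 CPM in mock libraries. In CNA-KnC3HDZ_8m, where KCS2 rose, KCS20 was at 149, 135 and 134 CPM against 130.1, 91.7 and 161 CPM. These groups overlapped, and the log2 difference was 0.13 ± 0.25 (edgeR adjusted p = 0.928). KCS20 did not pass the test in CNA-SmHOX32 (0.23 ± 0.25, edgeR adjusted p = 0.616) or CNA-PpHOX32 (0.38 ± 0.25, edgeR adjusted p = 0.454).

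KCS3 (AT1G07720, chr1:2390531-2392628, minus strand, 1 exon) had the clearest response among the tested members. In CNA-KnC3HDZ_8m it was at 154, 133 and 197 CPM in induced and at 37.5, 36.4 and 44.9 CPM in mock libraries. It rose by a log2 difference of 2.03 ± 0.26 (edgeR adjusted p = 2.01e-08), which held without each of the 6 libraries in turn (highest edgeR adjusted p = 2.42e-06). In CNA-SmHOX32 the order was turned, with 85, 98 and 76.3 CPM in induced below 106, 170.3 and 139 CPM in mock libraries. That log2 difference of -0.68 ± 0.25 missed the threshold (edgeR adjusted p = 0.0699), passed it with DESeq2 (-0.73, adjusted p = 0.032) and passed it without mock replicate 1 (-0.84, edgeR adjusted p = 0.0315). In CNA-PpHOX32 the libraries overlapped (0.41 ± 0.25, edgeR adjusted p = 0.387). In the described lines KCS3 was higher without overlap in CNA (2.22 ± 0.26), CNA-SDdelta (1.59 ± 0.25), PHB (2.44 ± 0.27) and PHB-SDdelta (1.94 ± 0.26). In PHB it was at 96, 115 and 97.5 CPM against 18.2, 20.5 and 17.9 CPM. In CNA-KnC3HDZ the induced libraries at 46.4 to 83.1 CPM overlapped the mock libraries at 63.1 to 106 CPM (-0.32 ± 0.25).

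KCS9 (AT2G16280, chr2:7050799-7052951, plus strand, 1 exon) makes precursors of wax, suberin and membrane lipids, and KCS10 (AT2G26250, chr2:11170416-11173278, minus strand, 3 exons) acts in the epidermis. KCS9 was above mock without overlap in CNA-SDdelta, at 105, 117 and 88.9 CPM against 39.5, 64.7 and 46.4 CPM (log2 difference 1.05 ± 0.29). In PHB it was below, at 24.5, 48.3 and 22 CPM against 52.8, 60.7 and 58.4 CPM (-0.84 ± 0.29). In the other 6 lines its groups overlapped. KCS10 varied within a narrow range, from 131 to 461 CPM. It was above mock in CNA (304, 314 and 402 CPM against 187, 195 and 215 CPM; 0.77 ± 0.17), CNA-SDdelta (0.59 ± 0.17), PHB-SDdelta (0.45 ± 0.17) and PHB (0.23 ± 0.17). In CNA-KnC3HDZ it was below, at 160.1, 158 and 131 CPM against 225, 219.7 and 229 CPM (-0.58 ± 0.17). Neither gene passed the test in CNA-KnC3HDZ_8m, CNA-SmHOX32 or CNA-PpHOX32. The nearest was KCS10 in CNA-SmHOX32 (-0.43 ± 0.17, edgeR adjusted p = 0.103), which passed with DESeq2 (-0.47, adjusted p = 0.0153).

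KCS4, KCS8 and KCS11 did not follow KCS1. KCS8 (AT2G15090, chr2:6542166-6544118, plus strand, 1 exon) fell in CNA-KnC3HDZ_8m, from 35.8, 43.8 and 68.7 CPM in mock to 8.64, 13.1 and 17.8 CPM in induced libraries (log2 difference -1.91 ± 0.61, edgeR adjusted p = 0.0416). The call did not survive leaving out induced replicate 1, 2 or 3 or mock replicate 2 or 3 (edgeR adjusted p from 0.0645 to 0.222). In PHB it was likewise lower, at 9.55, 6.38 and 7 CPM against 43.5, 66.4 and 53.7 CPM (-2.82 ± 0.64), and in PHB-SDdelta as well (-1.59 ± 0.61). In CNA-SDdelta it was higher, at 25.5, 41.4 and 49.3 CPM against 8.69, 9.58 and 6.85 CPM (2.20 ± 0.62), and in CNA-KnC3HDZ as well (1.86 ± 0.61). The direction of the KCS8 difference was thus not shared between CNA-SDdelta and PHB-SDdelta.

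KCS11 (AT2G26640, chr2:11329719-11331858, plus strand, 2 exons) was lower without overlap in PHB (-1.56 ± 0.49), PHB-SDdelta (-1.34 ± 0.49) and CNA-KnC3HDZ_8m. In CNA-KnC3HDZ_8m it fell from 26.9, 21.5 and 39.5 CPM to 11.9, 10.4 and 6.14 CPM (log2 difference -1.61 ± 0.49, edgeR adjusted p = 0.0296). The call was lost without induced replicate 1, 2 or 3 or mock replicate 1 or 3 (edgeR adjusted p from 0.0538 to 0.173). KCS11 overlaps a gene on the opposite strand, so its counts are uncertain. KCS4 (AT1G19440, chr1:6728747-6730931, plus strand, 1 exon) was low and variable, at 0.442 to 38.9 CPM, and its groups overlapped in all 8 lines. Root markers were lower in some of the lines in which these genes were lower, and not in all. The summed level of the 4 listed root markers was 66.5 to 89.4 CPM in mock and 13.1 to 19.7 CPM in induced CNA-KnC3HDZ_8m, and 41.9 to 82 against 10.6 to 17.8 CPM in PHB. In PHB-SDdelta, where KCS8 and KCS11 were also lower, it was 36.2 ± 18 CPM in mock and 34.7 ± 7.03 CPM in induced seedlings (SD, n = 3). In CNA-PpHOX32 it was 42.4 ± 20.3 against 9.17 ± 4.02 CPM, while KCS8 (-0.10 ± 0.60) and KCS11 (0.35 ± 0.48) differed little from mock there. In CNA-SDdelta, where KCS8 was higher, it was 59.8 ± 21.4 against 58.5 ± 23.9 CPM. None of the 4 markers was at 0 in all libraries of a group. The part of root tissue in the KCS8 and KCS11 values was not tested.

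**Figure D2:**
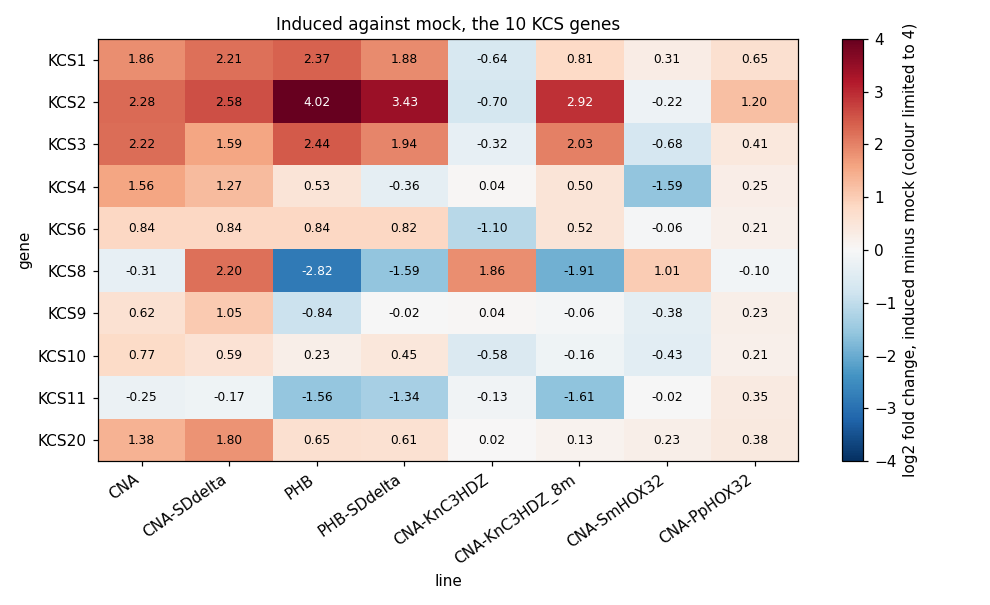
Log2 difference of induced minus mock (colour and printed value, n = 3 against 3 per cell) for the 10 KCS genes (rows) in the 8 lines (columns). KCS1, KCS2, KCS3, KCS6, KCS10 and KCS20 are above 0 in CNA, CNA-SDdelta, PHB and PHB-SDdelta, and KCS8 changes sign between lines, from -2.82 in PHB to 2.20 in CNA-SDdelta.

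Counted over the set, 5 of 10 members passed the test in CNA-KnC3HDZ_8m, 3 of them higher (KCS1, KCS2 and KCS3) and 2 lower (KCS8 and KCS11). In that line 7.01% of all genes tested were called, 3.51% higher and 3.51% lower. The count was 2 to 4 when any 1 of the 6 libraries was left out, so 5 was not kept in any of those fits. They also differed from the main fit in the dispersion trend they were given. The median log2 difference was 0.31 over the members and -0.03 over all genes tested. In CNA-SmHOX32 edgeR called 0 of 10 members and 10.1% of all genes (4.74% higher and 5.38% lower). In CNA-PpHOX32 edgeR called 0 of 10 members and 5.48% of all genes (1.56% higher and 3.92% lower). At an unadjusted p under 0.05 in edgeR, 2 members lay in each of these lines. No share of all genes at that p is given, so nothing is read from this count. DESeq2 called 2 members in CNA-SmHOX32, beside 2876 of 18173 genes, and 1 in CNA-PpHOX32, beside 1607 of 17807 genes. The groups did not overlap for 4 members above and 2 below mock in CNA-KnC3HDZ_8m, against 13.2% and 13.8% of all genes. In CNA-SmHOX32 1 member (KCS3) lay below mock, against 8.01% of genes, and 0 above, against 9.8%. In CNA-PpHOX32 2 members (KCS1 and KCS2) lay above mock, against 7.56% of genes, and 0 below, against 9.65%.

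In the 5 lines behind the choice of the set, the same counts are a description from which nothing is read. In CNA 6 members were called higher, beside 4.05% of all genes, and 0 lower, beside 3.96% (8.01% in either direction). The libraries of 6 members stood above mock without overlap, beside 10.3% of genes, and of 0 below, beside 14.6%. In CNA-SDdelta 8 were called higher, beside 2.71%, and 0 lower, beside 2.09% (4.8% in either direction), and 8 stood above without overlap, beside 10.8%, and 0 below, beside 11.9%. In PHB 4 were called higher, beside 4.44%, and 2 lower, beside 4.99% (9.43% in either direction). In that line 6 stood above without overlap, beside 10.9%, and 3 below, beside 14.6%. In PHB-SDdelta 4 were called higher, beside 3.59%, and 0 lower, beside 3.44% (7.03% in either direction), and 6 stood above without overlap, beside 16.4%, and 2 below, beside 13%. In CNA-KnC3HDZ 0 were called higher, beside 1.19%, and 2 lower, beside 2.11% (3.3% in either direction), and 1 stood above without overlap, beside 12.1%, and 3 below, beside 12.1%.

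The summed level of the 10 members was 1402 ± 313 CPM in mock and 2955 ± 484 in induced CNA seedlings (SD, n = 3). In CNA-KnC3HDZ it was 1485 ± 223 in mock and 906 ± 85.1 in induced seedlings.

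Whether the response to induction differed between CNA-KnC3HDZ_8m, CNA-SmHOX32 and CNA-PpHOX32 was tested directly, as the difference between their log2 differences. It differed among the 3 lines for 2 of 10 members, KCS3 (edgeR adjusted p = 5.7e-07) and KCS2 (edgeR adjusted p = 0.0427), against 4.84% of all genes tested. Between CNA-SmHOX32 and CNA-KnC3HDZ_8m 3 of 10 members differed, against 4.79% of all genes, 2 of them with a lower response in CNA-SmHOX32 (2.85% of all genes) and 1 with a higher one (1.94%). KCS3 responded less in CNA-SmHOX32, by -2.70 ± 0.36 log2 units (edgeR adjusted p = 1.05e-07), and this held without each of the 12 libraries in turn. KCS2 also responded less, by -3.14 ± 0.84 (edgeR adjusted p = 0.0143), a call lost without CNA-KnC3HDZ_8m mock replicate 1 (edgeR adjusted p = 0.0532) and without CNA-SmHOX32 mock replicate 3 (edgeR adjusted p = 0.0896). KCS8 differed in the other direction, by 2.92 ± 0.86 (edgeR adjusted p = 0.0315). The KCS8 call was lost without CNA-KnC3HDZ_8m induced replicate 1 or 2 or mock replicate 3, or without CNA-SmHOX32 induced replicate 1 or mock replicate 2 (edgeR adjusted p from 0.0667 to 0.237). The mock means differed too. KCS2 was at 48.3 ± 40.5 CPM in mock and 41.8 ± 9.13 in induced CNA-SmHOX32 seedlings (SD, n = 3). In CNA-KnC3HDZ_8m it was at 6.49 ± 2.49 and 48.7 ± 3.55. KCS3 was at 138 ± 32.4 and 86.5 ± 10.9 CPM, against 39.6 ± 4.62 and 161 ± 32.4. KCS8 was at 8.48 ± 6.47 and 17.4 ± 15.6 CPM, against 49.5 ± 17.2 and 13.2 ± 4.56. Induced libraries overlapped between these lines for KCS2 and KCS8, but not for KCS3.

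Between CNA-PpHOX32 and CNA-KnC3HDZ_8m, 1 of 10 members differed, against 1.31% of all genes, with a lower response in CNA-PpHOX32 (1.04% of all genes lower, 0.27% higher). This was KCS3, by -1.61 ± 0.35 (edgeR adjusted p = 0.00454), and it held without each of the 12 libraries in turn (highest edgeR adjusted p = 0.035). In CNA-PpHOX32 KCS3 was at 153 ± 46.1 CPM in mock and 204 ± 61.9 in induced seedlings (SD, n = 3). Its induced libraries there (133 to 241 CPM) overlapped those of CNA-KnC3HDZ_8m (133 to 197 CPM), whose mock level was 39.6 ± 4.62 CPM. Between CNA-SmHOX32 and CNA-PpHOX32 0 of 10 differed by edgeR, against 2.28% of all genes (1.26% higher, 1.03% lower), with the smallest adjusted p for KCS3 (-1.09 ± 0.35, edgeR adjusted p = 0.0833). For KCS1 none of the 3 pairs passed. Its response in CNA-SmHOX32 minus CNA-KnC3HDZ_8m was -0.50 ± 0.31 (edgeR adjusted p = 0.442), in CNA-PpHOX32 minus CNA-KnC3HDZ_8m -0.15 ± 0.31 (edgeR adjusted p = 0.951), and in CNA-SmHOX32 minus CNA-PpHOX32 -0.34 ± 0.31 (edgeR adjusted p = 0.639). The call of KCS1 in CNA-KnC3HDZ_8m and its absence in the HOX32 lines is therefore not shown to be a difference between the lines.

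The lines also stood apart before induction. The mock libraries of the 5 lines behind the choice are part of the values that chose the set, so the mock levels are a description and no p-value is given for a member. In a fit of the mock level over the 8 lines 8 of 10 members, all but KCS4 and KCS11, were past the threshold, beside 17.9% of all genes tested, and nothing is read from this count. For KCS1 the 6 mock libraries of CNA-SmHOX32 and CNA-PpHOX32 ranged from 262 to 437 CPM and the 18 mock libraries of the other 6 lines from 37.6 to 148 CPM, a ratio of means of 3.76. For KCS6 the ranges were 1113 to 1652 and 384 to 1069 CPM, a ratio of 2.12. For KCS9 they were 69.5 to 143 and 39.5 to 66.6 CPM, a ratio of 1.8. In these 3 members no HOX32 mock library reached down to another line. No share of all genes is given for this, and nothing is read from the count. In the other members the ranges overlapped, with ratios of 5.43 for KCS2, 3.12 for KCS3, 2.6 for KCS4, 1.66 for KCS10, 1.75 for KCS20 and 0.676 for KCS11. KCS8 had another order, with its highest mock means in PHB (54.5 ± 11.5 CPM, SD, n = 3) and CNA-KnC3HDZ_8m (49.5 ± 17.2) and a HOX32 ratio of 0.359. The labels give no batch, and a batch that followed the lines cannot be told apart from the line.

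**Figure D3:**
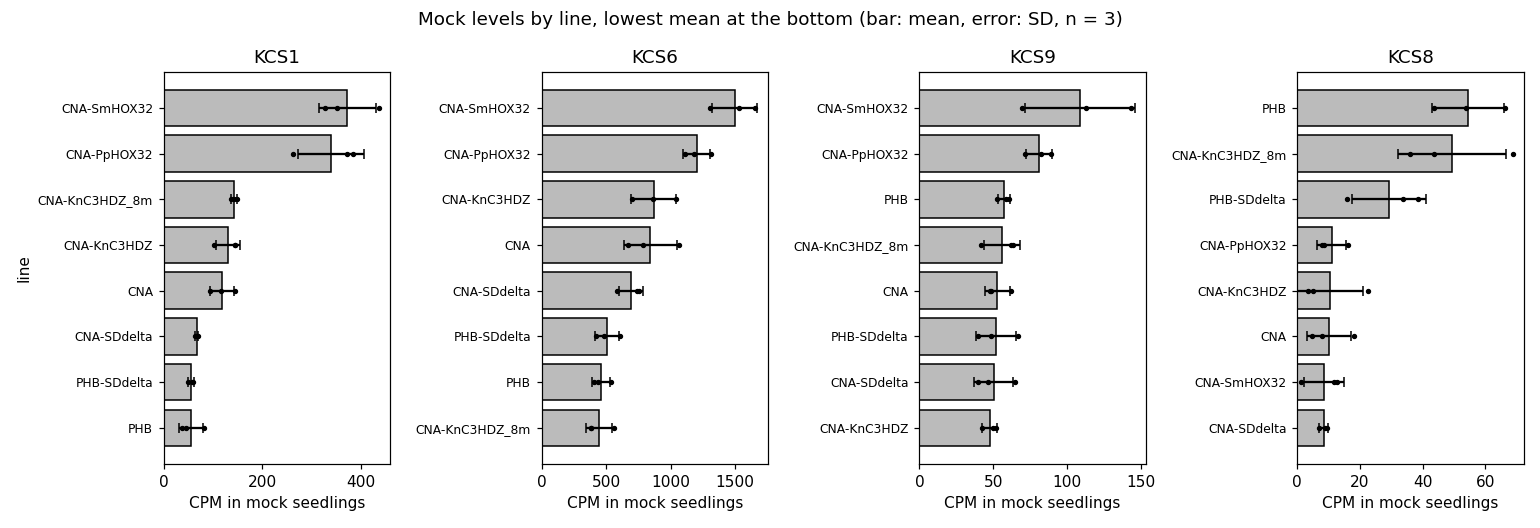
Mean level in mock seedlings in CPM (x axes from 0, with bars for the mean, error bars for the SD, n = 3, and points for libraries) of KCS1, KCS6, KCS9 and KCS8 in the 8 lines (y axes). KCS1 is at 372 ± 57.4 CPM in CNA-SmHOX32 and 339 ± 67.2 CPM in CNA-PpHOX32, above the other 6 lines, while KCS8 is highest in PHB and CNA-KnC3HDZ_8m.

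The levels of the members varied together to different degrees across the 48 libraries. On the log2 scale, KCS1 had a Pearson r of 0.853 with KCS3 and with KCS20, 0.828 with KCS6, 0.814 with KCS10 and 0.795 with KCS2. It had 0.483 with KCS9, 0.363 with KCS4, -0.34 with KCS11 and -0.374 with KCS8. After the mean of each line was taken out, the values were 0.886 for KCS3, 0.849 for KCS6, 0.808 for KCS20, 0.75 for KCS2 and 0.686 for KCS10, but 0.124 for KCS9. KCS8 and KCS11 had 0.43 with each other, and 0.5 with line means removed. These points share lines, treatments and depth and are a description.

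Of the 16080 genes with a mean of at least 10 counts, the 5 non-members whose pattern over the 48 libraries was most like that of KCS1 were LTPG1 (r = 0.943), CP1 (AT5G49480, r = 0.932), LTPG2 (r = 0.915), AT1G23040 (r = 0.883) and SIP1 (AT5G40390, r = 0.879). LTPG1 and LTPG2 encode lipid transfer proteins anchored at the plasma membrane that act in wax export. LTPG1 stayed the first of all by rank correlation (Spearman's rho = 0.945) and with line means removed (r = 0.942). With line means removed, LTPG2 moved to place 19, SIP1 to 16 and AT1G23040 to 65 among the non-members. The first 5 were then LTPG1, GSTF8 (r = 0.917), CP1 (r = 0.907), AT4G01870 (r = 0.897) and UBQ11 (r = 0.895).

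**Figure D4:**
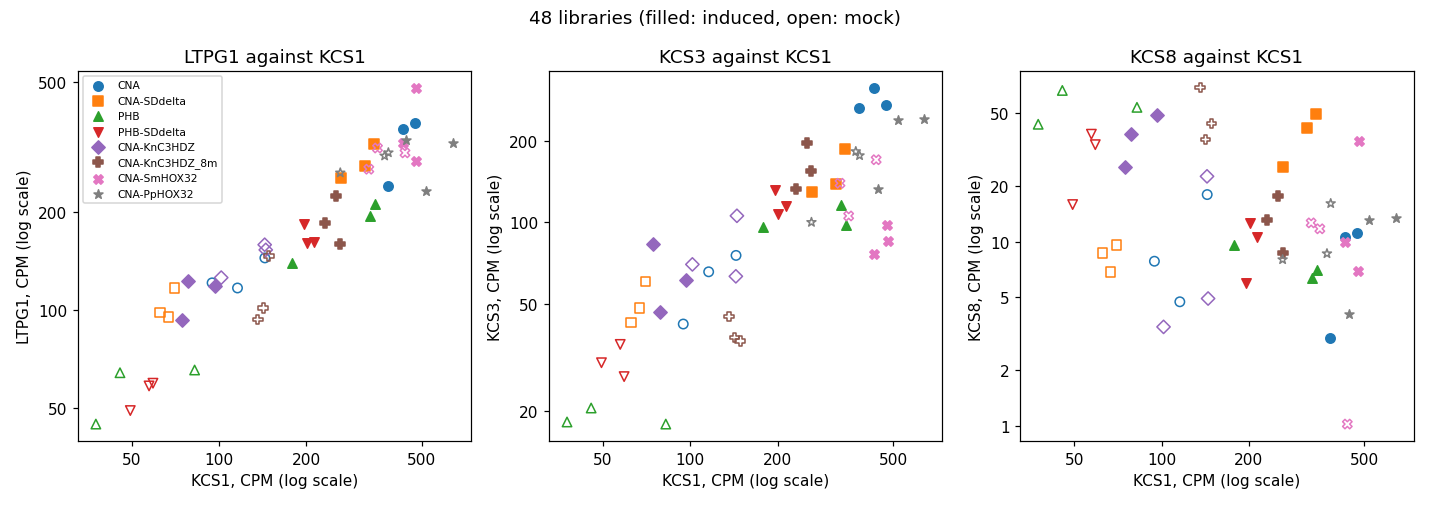
Levels of LTPG1, KCS3 and KCS8 (y axes, CPM, log scale) against KCS1 (x axes, CPM, log scale) in the 48 libraries, with filled points for induced and open points for mock seedlings. LTPG1 (r = 0.943) and KCS3 (r = 0.853) climb with KCS1, and KCS8 (r = -0.374) does not.

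The other genes of the pathway come from lists set for this tissue and were tested in all 8 lines. The lists were chosen with earlier results of these data known. Their p-values in the 5 lines behind the choice of the set are therefore not an independent test of the response seen for KCS1. Of the 11 other KCS genes 5 passed the filter on low counts. KCS5, also called CER60 and close in sequence to KCS6, rose in CNA from 1.3 ± 1.68 to 36.4 ± 18.3 CPM (SD, n = 3; log2 difference 4.71 ± 0.84 SE, edgeR adjusted p = 4.33e-05). It also rose in CNA-SDdelta (3.13 ± 0.78, edgeR adjusted p = 0.00689), a call lost without mock replicate 1 (edgeR adjusted p = 0.0729). As close copies, KCS5 and KCS6 could share reads where their 3' ends are alike. KCS12 fell in CNA-KnC3HDZ_8m from 154 ± 44.3 to 13.5 ± 9.81 CPM (-3.46 ± 0.58, edgeR adjusted p = 9.62e-06).

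KCS12 also fell in PHB (-2.11 ± 0.55, edgeR adjusted p = 0.00579), where leaving out induced replicate 2 (edgeR adjusted p = 0.0752) or mock replicate 2 (edgeR adjusted p = 0.0823) ended the call. It fell in PHB-SDdelta (-1.998 ± 0.58, edgeR adjusted p = 0.0212), a call lost without induced replicate 1 or 3 or mock replicate 1 (edgeR adjusted p from 0.0569 to 0.196). In CNA-SmHOX32 it rose (1.60 ± 0.55, edgeR adjusted p = 0.0488), which was lost with DESeq2 (adjusted p = 0.074) and without induced replicate 1, 2 or 3 or mock replicate 3 (edgeR adjusted p from 0.0609 to 0.214). KCS16 fell in CNA-SmHOX32 (-2.14 ± 0.58, edgeR adjusted p = 0.00962), lost without induced replicate 2 or 3 or mock replicate 3 (edgeR adjusted p from 0.0541 to 0.0722) and, like KCS12, in a fit on that line alone (edgeR adjusted p = 0.129 for KCS16 and 0.15 for KCS12). KCS13 was called lower in CNA-SmHOX32, where it had 0 counts in the 3 induced libraries and 66, 0 and 3 counts in the mock libraries, so 1 mock library decided it.

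Of the 12 partners of the KCS enzymes in the elongase 1 was called in CNA, 1 in CNA-SDdelta, 1 in PHB, 1 in PHB-SDdelta and 1 in CNA-SmHOX32, each higher. The shares of all genes called higher in these 5 lines were 4.05%, 2.71%, 4.44%, 3.59% and 4.74%, and 1 of 12 does not set the list apart from them. CER10, the enoyl-CoA reductase that ends the cycle, rose in CNA from 78 ± 8.43 to 191 ± 28.3 CPM (SD, n = 3; log2 difference 1.29 ± 0.23 SE, edgeR adjusted p = 3.7e-05). It rose in CNA-SDdelta by 1.17 ± 0.23 (edgeR adjusted p = 0.000291). In PHB its rise of 0.76 ± 0.23 (edgeR adjusted p = 0.0196) was lost without induced replicate 1 or 2 or mock replicate 1 or 3 (edgeR adjusted p from 0.0545 to 0.174), with no filter on low counts (edgeR adjusted p = 0.0834) and in a fit on that line alone (edgeR adjusted p = 0.109). CER2, which helps KCS6 to make longer chains, rose in PHB-SDdelta by 1.09 ± 0.24 (edgeR adjusted p = 0.000771). CER26, a relative of CER2, rose in CNA-SmHOX32 from 2.08 ± 1.94 to 21.5 ± 11.4 CPM (3.28 ± 0.87, edgeR adjusted p = 0.00844), lost without mock replicate 2 (edgeR adjusted p = 0.0569) and in a fit on that line alone (edgeR adjusted p = 0.128). The ketoreductase KCR1 and the dehydratase PAS2 were not called in any line.

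Of 8 genes that act after elongation, in forming and exporting wax, 5 passed the filter. Of these, 3 rose in CNA, 4 in CNA-SDdelta, 4 in PHB, 4 in PHB-SDdelta, 2 in CNA-KnC3HDZ_8m and 0 in CNA-KnC3HDZ, CNA-SmHOX32 and CNA-PpHOX32, with 1 lower in CNA-SmHOX32. The shares of all genes called higher in these 8 lines were 4.05%, 2.71%, 4.44%, 3.59%, 3.51%, 1.19%, 4.74% and 1.56%. CER3, which makes alkanes together with CER1, rose in CNA from 59.2 ± 16.5 to 176 ± 40.5 CPM (SD, n = 3; log2 difference 1.57 ± 0.28 SE, edgeR adjusted p = 5.96e-05). It rose by 1.43 in CNA-SDdelta, 1.20 in PHB and 1.47 in PHB-SDdelta. LTPG1 rose by 1.34 in CNA, 1.46 in CNA-SDdelta, 1.64 in PHB and 1.59 in PHB-SDdelta (SE 0.21 to 0.22, largest edgeR adjusted p = 4.4e-06). In CNA-KnC3HDZ_8m LTPG1 rose by 0.74 ± 0.21 (edgeR adjusted p = 0.0181), lost without induced replicate 3 or mock replicate 1 or 3 (edgeR adjusted p from 0.11 to 0.16) and with counts thinned to the smallest library (edgeR adjusted p = 0.0668). CER3 and LTPG1 in CNA, CNA-SDdelta, PHB and PHB-SDdelta kept their calls without each library of the line.

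The transporters ABCG11 and ABCG12 carry wax across the plasma membrane. ABCG11 rose in CNA (1.22 ± 0.32), CNA-SDdelta (1.20 ± 0.32) and PHB (1.36 ± 0.33), with edgeR adjusted p of 0.00855, 0.0155 and 0.0026. The call was lost in CNA without induced replicate 2 or mock replicate 2 or 3 (edgeR adjusted p up to 0.0951), in CNA-SDdelta without induced replicate 3 or mock replicate 1 or 3 (up to 0.13) and in PHB without mock replicate 3 (0.0798). ABCG12 rose in CNA-SDdelta (0.98 ± 0.24, edgeR adjusted p = 0.00562) and in PHB-SDdelta (0.82 ± 0.24, edgeR adjusted p = 0.0213), where the call was lost without induced replicate 1 or 3 or mock replicate 1 or 3 (edgeR adjusted p up to 0.215). CER1 was at 1 count summed over the 3 mock libraries of CNA-KnC3HDZ_8m and at 15.7, 9.23 and 15.7 CPM in the induced libraries (edgeR adjusted p = 9.05e-05). CER1 was also called higher in PHB-SDdelta (3.33 ± 1.07, edgeR adjusted p = 0.0433) and lower in CNA-SmHOX32 (-2.90 ± 0.98, edgeR adjusted p = 0.0477), and both calls were lost in most fits that left out 1 library. In PHB CER1 was at 0 counts in the 3 mock libraries and 0.986 ± 1.54 CPM in induced libraries, and the call was lost without induced replicate 1 (edgeR adjusted p = 0.375), without mock replicate 1 (edgeR adjusted p = 0.0516), with counts thinned to the smallest library (edgeR adjusted p = 0.25) and with a replicate block within lines (edgeR adjusted p = 0.0546).

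**Figure D5:**
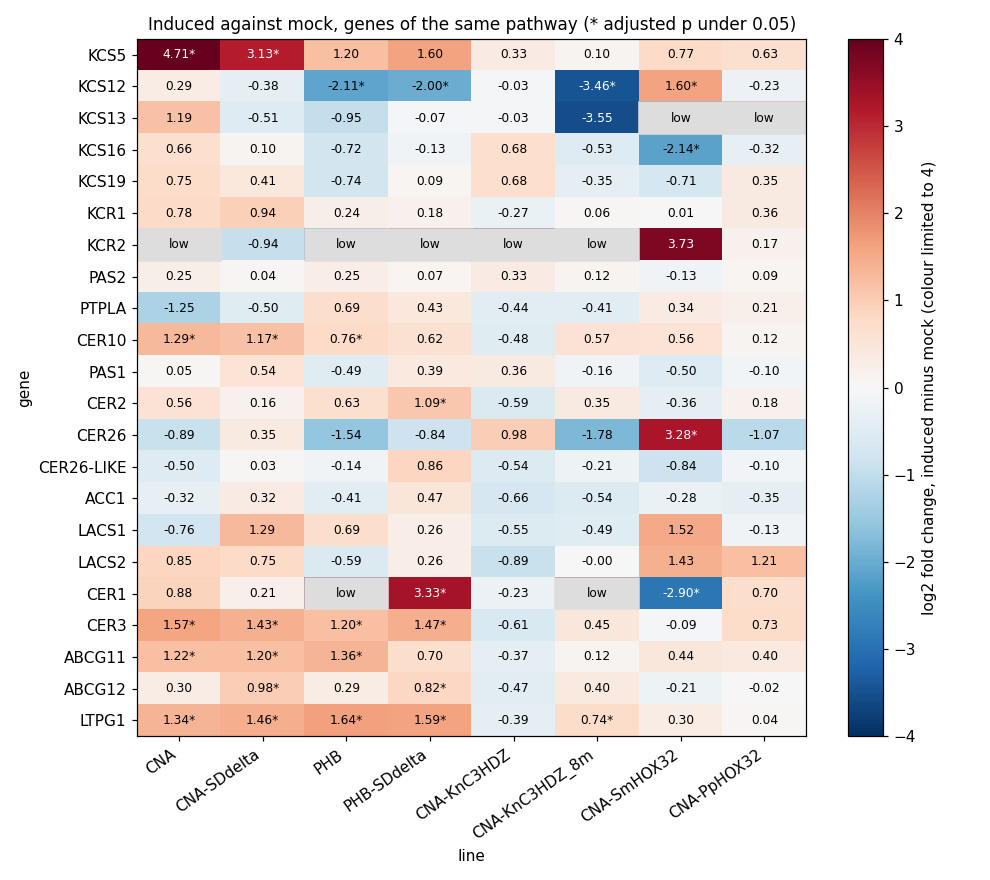
Log2 difference of induced minus mock (colour and printed value, n = 3 against 3 per cell) for other KCS genes, elongase partners and wax genes (rows) in the 8 lines (columns). An asterisk marks an edgeR adjusted p under 0.05, and grey cells marked low have a group at or under 3 counts per library, where no fold is given. CER3 and LTPG1 carry asterisks in CNA, CNA-SDdelta, PHB and PHB-SDdelta.

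Of 7 suberin genes, all of which passed the filter, 1 was called in 1 line. ASFT, which adds ferulate to suberin, fell in PHB from 93, 31 and 21 counts in the mock libraries to 1, 0 and 0 counts in the induced libraries (edgeR adjusted p = 0.00151). In PHB 4.99% of all genes tested were called lower (9.43% in either direction), and nothing is read from the count of suberin genes. Of 11 regulators of wax genes 7 passed the filter. MYB96, an activator of KCS and wax genes, rose in CNA from 43.5 ± 10.8 to 136 ± 30.8 CPM (SD, n = 3; log2 difference 1.65 ± 0.30 SE, edgeR adjusted p = 6.99e-05). MYB96 also rose in PHB (1.41 ± 0.30, edgeR adjusted p = 0.00053), a call lost without induced replicate 2 (edgeR adjusted p = 0.0616), and in PHB-SDdelta (1.14 ± 0.30, edgeR adjusted p = 0.00898), lost without mock replicate 1 (edgeR adjusted p = 0.136). MYB30, another activator, rose in CNA (2.63 ± 0.74, edgeR adjusted p = 0.0146) and CNA-SDdelta (2.32 ± 0.72, edgeR adjusted p = 0.0464). The first call was lost without induced replicate 2 or mock replicate 1 (edgeR adjusted p = 0.277 and 0.101), and the second in every fit but the one without induced replicate 1 (edgeR adjusted p up to 0.175). Both were also lost with a replicate block within lines (edgeR adjusted p = 0.0863 and 0.103).

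DEWAX, a repressor of wax genes, rose in CNA-SmHOX32 from 19.9 ± 10.6 to 60.5 ± 14.8 CPM (SD, n = 3; log2 difference 1.58 ± 0.29 SE, edgeR adjusted p = 6.53e-05), a call lost in a fit on the libraries of that line alone (edgeR adjusted p = 0.0825). It also rose in CNA (0.95 ± 0.28, edgeR adjusted p = 0.0178), CNA-SDdelta (1.05 ± 0.27, edgeR adjusted p = 0.0108) and CNA-KnC3HDZ (1.01 ± 0.27, edgeR adjusted p = 0.0188). These were lost without induced replicate 2 or mock replicate 1 or 3 in CNA (edgeR adjusted p up to 0.106), without induced replicate 2 or mock replicate 1 in CNA-SDdelta (up to 0.1) and without each library but induced replicate 1 in CNA-KnC3HDZ (up to 0.165). WRI4, an activator of fatty acid and wax genes of the stem, fell in PHB (-1.67 ± 0.33, edgeR adjusted p = 0.000135) and CNA-KnC3HDZ_8m (-1.27 ± 0.32, edgeR adjusted p = 0.00589). In PHB-SDdelta it fell by 0.98 on the log2 scale (edgeR adjusted p = 0.0492), a call lost without each of the 6 libraries in turn. The epidermis markers ATML1, PDF2, PDF1 and HDG2 differed by line and by gene. Their summed level was 223 to 245 CPM in mock and 102 to 127 CPM in induced CNA-KnC3HDZ_8m, 220 to 239.8 against 76 to 131 CPM in PHB, and 178 to 193 against 106 to 139.5 CPM in CNA-SDdelta, without overlap. In CNA the ranges of 153 to 214 and 168 to 273 CPM overlapped, as they did in PHB-SDdelta, CNA-KnC3HDZ, CNA-SmHOX32 and CNA-PpHOX32. Within the list, ATML1 fell in PHB and CNA-KnC3HDZ_8m and PDF2 in PHB, PHB-SDdelta, CNA-KnC3HDZ_8m and CNA-PpHOX32, HDG2 fell in CNA-SmHOX32, and PDF1 rose in CNA (1.59 ± 0.40, edgeR adjusted p = 0.0055) and CNA-PpHOX32 (1.39 ± 0.40, edgeR adjusted p = 0.0244). None of the 4 was at 0 in all libraries of a group. The part of the epidermis, root and leaf marker shifts in the levels of the KCS and wax genes was not tested.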

How the data were processed

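Per the labels, polyadenylated RNA of whole seedlings was made into Lexogen QuantSeq 3' libraries, and each of the 48 deposited tables holds raw read counts per gene for 1 library, unscaled and unpooled. Alignment was done with STAR, per the file headers. The submitters' processing notes name Trimmomatic, STAR, featureCounts and DESeq2 and the build TAIR10. Annotation, strand setting, versions and the use of molecular identifiers are not given in the sources used here, so reads may include PCR copies.

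The main test used edgeR 4.0.16 (R 4.3.3) on the counts as deposited, with filterByExpr by group (18909 of 28496 genes kept), TMM scaling, 1 mean per group over the 16 groups and the quasi-likelihood test. Adjusted p-values (Benjamini-Hochberg, threshold 0.05) are over all genes tested. The 48 pairs of replicates differed by more than sampling noise (chi-square per degree of freedom 9.67 to 52.8), so none was counted as a repeat. Alternatives were DESeq2 1.42.0, its size factors, other filters, thinning to the smallest library, replicate blocks, fits on single lines, a GC correction and leaving out each library. Fits that left out a library kept the gene set and were given the dispersion trend of the fit to all 48 libraries, which the main fit was not given. The edgeR steps were also run on simulated counts as a check of the code only. Those counts held no differences between mock groups, unlike these data, and nothing is read from that run. Genes named are the members, genes of the other lists called in at least 1 line (at most 4 per list and line), and the 5 most like KCS1 by Pearson r of log2(CPM + 1). The members and lists were chosen with earlier results of these data known. Chromosome positions and sequences are from RefSeq TAIR10.1 and matched all 10 members.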

Additional observations from a re-analysis of the deposited data

Results flagged for a closer look

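Responses to induction that differed between lines by a direct test are repeated with their values. KCS3 responded less in CNA-SmHOX32 (-2.7 log2 units) and in CNA-PpHOX32 (-1.61) than in CNA-KnC3HDZ_8m. KCS2 responded less in CNA-SmHOX32 than in CNA-KnC3HDZ_8m (-3.14), and KCS8 differed the other way (2.92). The mock means of KCS2, KCS3 and KCS8 differed between these lines as given above, so a lower response need not be a lower induced level. Outside the set, KCS12 responded more in CNA-SmHOX32 (5.06, edgeR adjusted p = 4.69e-06) and in CNA-PpHOX32 (3.24, edgeR adjusted p = 0.0113) than in CNA-KnC3HDZ_8m, and the second difference was lost without CNA-KnC3HDZ_8m induced replicate 3 or CNA-PpHOX32 mock replicate 1 or 3 (edgeR adjusted p up to 0.0648). CER26 responded more in CNA-SmHOX32 than in CNA-KnC3HDZ_8m (5.06, edgeR adjusted p = 0.00369) and than in CNA-PpHOX32 (4.35, edgeR adjusted p = 0.0317), the latter lost without CNA-SmHOX32 induced replicate 1 or mock replicate 2, or CNA-PpHOX32 induced replicate 2 or 3 or mock replicate 3 (edgeR adjusted p up to 0.101). DEWAX responded more in CNA-SmHOX32 than in CNA-KnC3HDZ_8m (1.82) and than in CNA-PpHOX32 (2.19). WRI4 responded more in CNA-SmHOX32 than in CNA-KnC3HDZ_8m (1.71), lost without CNA-SmHOX32 induced replicate 1 or mock replicate 1 (edgeR adjusted p up to 0.0799). The fitted differences for CER1 were -10.5 in CNA-SmHOX32 and -6.88 in CNA-PpHOX32, each minus CNA-KnC3HDZ_8m, where the mock group had 1 count, so their size depends on the prior count, and the second was lost without any 1 of the CNA-KnC3HDZ_8m mock libraries.

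For 6 members the groups stood apart in opposite directions in different lines, and except for KCS3, whose difference between CNA-SmHOX32 and CNA-KnC3HDZ_8m was tested above, this was not tested. KCS1 lay above mock without overlap in 6 lines and below in 1, KCS3 and KCS6 each in 5 lines and 1, KCS10 in 4 and 1, KCS8 in 2 and 3, and KCS9 in 1 and 1. These lines include the 5 behind the choice of the set, and KCS1 lay below mock only in CNA-KnC3HDZ, which is 1 of them. Of all genes, 7.56% to 16.4% stood above mock without overlap in a line and 8.01% to 14.6% below. The share of all genes that stood above in 1 line and below in another is not given. These shares for single lines therefore set no scale for the 6 members. The counts are a description from which nothing is read.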

How the results depend on the processing

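Of 2693 values recomputed under the alternatives, 0 reversed a call, 134 lost a call, 10 gained one, 40 moved and 2509 were counted as unchanged. A tested value that was not called could change sign and still be counted as unchanged. KCS2 in CNA-SmHOX32, for example, ranged from -0.741 to 0.489 over the fits without 1 library. For members in the 5 lines behind the choice, unchanged means a shift smaller than the spread between replicates, with no threshold applied. For counts it means within 1.5 times. All 126 values of KCS1 kept their sign. KCS1 in CNA-PpHOX32 passed the threshold with DESeq2 size factors (0.689) and DESeq2 (0.688). In CNA-KnC3HDZ_8m its value ranged from 0.758 to 0.856 over the fits without 1 library. Members called came to 1 in CNA-SmHOX32 and 1 in CNA-PpHOX32 with DESeq2 size factors, and to 2 and 1 with DESeq2. All genes called in these lines were 1943 and 1038 of 18909 with DESeq2 size factors. With DESeq2 they were 2876 of 18173 and 1607 of 17807. Fits on the libraries of 1 line called 7 members in PHB-SDdelta, beside 2478 of 15811 genes, and 4 in CNA-KnC3HDZ, beside 1574 of 15660 genes. Both lines are among the 5 behind the choice, and nothing is read from these counts. Leaving out 1 library gave 4 to 8 members in CNA-SDdelta, 1 to 2 in CNA-KnC3HDZ, 2 to 4 in CNA-KnC3HDZ_8m and 0 to 1 in CNA-SmHOX32. The response differed among 3 lines for 4 members with DESeq2 and for 1 to 2 without 1 library. Calls over genes and lines numbered 5 to 9 for the other KCS genes (8 with all libraries) and 1 to 2 for suberin genes. No share of all genes is given for the fits without 1 library or for the DESeq2 test among 3 lines. The same holds for calls summed over lines, and nothing is read from these counts. Of the 5 genes most like KCS1, 3 remained by Spearman's rho and 2 with line means removed. The cause of these changes was not tested.

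A pairing of the samples by replicate number was not seen, but the check cannot exclude it. Of the same-numbered pairs, 0 of 24 had a correlation of deviations over 0.1 (range -0.0253 to 0.0778). The deviations were taken over all genes tested and hold count noise, which lowers such a correlation. Among the induced libraries, 11 of 24 correlated best with their own number. With the replicate block within lines KCS1 in CNA-PpHOX32 passed the threshold at 0.659 and with the block across lines at 0.645, each giving 1 member called there, and the KCS2 difference between CNA-SmHOX32 and CNA-KnC3HDZ_8m was -2.73 (edgeR adjusted p = 0.102) with the block within lines. The GC correction and the fit without the HOX32 lines were chosen after seeing the data. With the GC correction KCS6 in CNA-KnC3HDZ_8m passed (0.582, edgeR adjusted p = 0.0358), and without a filter on low counts KCS11 there did not (edgeR adjusted p = 0.0506). Depth limits KCS2, KCS4 and KCS8, which had at or under 3 counts in 1 or 2 libraries.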
